A study of Mus musculus with 8 samples.

Results

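The genes described here are 38 genes of sterol and fatty acid synthesis, of the 55487 genes listed in each of 8 RNA-seq libraries from mouse bone marrow. They were chosen by name, and the level of each was taken as the TPM (a transcript level scaled for length and for the total of the library) summed over its annotated transcripts. The libraries come from C57BL/6J mice and form 4 groups of 2. Floxed out basophils and floxed out pre-Baso came from mice in which a floxed Nfil3 gene had been removed (genotype Nfil3-depleted), and ctrl basophils and ctrl pre-Baso came from wild type mice. Both sorted populations were Lineage-, CD34-, ckit- and CD200R3+, and they differed in staining with MAR1, an antibody to the high-affinity IgE receptor. Basophils were MAR1INT and pre-Baso, the less mature population, were MAR1HI. The Cre line that removed Nfil3, the age and sex of the mice and the number of mice behind a library are not given in the sources used here. The series describes the 2 libraries of a group as biological duplicates, so p-values measure the spread between such pairs.

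Cholesterol is built from acetyl-CoA through mevalonate, farnesyl diphosphate and squalene, and fatty acids are built from the same precursor by acetyl-CoA carboxylase and fatty acid synthase. Most of these enzymes are induced by SREBP-2 and SREBP-1, transcription factors that leave the endoplasmic reticulum with their escort protein Scap when sterols are scarce and are held there by Insig proteins when sterols are plentiful. Oxysterols activate the nuclear receptors LXR-alpha and LXR-beta, which induce the exporters Abca1 and Abcg1, so synthesis and export are usually regulated in opposite directions. Cells that divide need new membrane, and sterol synthesis is commonly high in them. Nfil3 is a basic leucine zipper transcription factor.

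Nfil3 itself matched the labels. It had 0.853 and 1.32 TPM in floxed out basophils, against 20.5 and 22.5 TPM in ctrl basophils. In pre-Baso it was listed at 0 and 0.624 TPM in floxed out libraries, against 6.61 and 7.65 TPM in ctrl libraries. The difference passed the test in both populations, with log2 changes by limma of -3.44 ± 0.25 (SE, adjusted p = 0.0015) in basophils and -2.67 ± 0.25 (adjusted p = 0.0090) in pre-Baso. Coverage of its long exon on chromosome 13 (52967209 to 52969021, minus strand) was 0 to 0.191 reads per base in the 4 floxed out libraries, against 4.29 to 12.04 in the 4 ctrl libraries. Its other exon (52980861 to 52981073) did not follow the genotype. Coverage there was 3.40 and 5.62 in floxed out basophils and 2.87 and 2.19 in ctrl basophils. In pre-Baso it was 0 and 2.87 in floxed out libraries and 2.36 and 1.20 in ctrl libraries. The libraries held 271.7 to 398.0 Mb of assigned bases, of which the 38 genes took 170 to 267 kb, and the files give no read counts. Basophil markers were present in every library, with Fcer1a at 160 to 424 TPM in basophils and 547 to 960 TPM in pre-Baso. Mcpt8, a basophil protease, was at 1.98 to 6.04 TPM in the floxed out libraries, against 969 to 7888 TPM in the ctrl libraries. Replicate 1 of both basophil groups stood apart by macrophage genes. C1qb, a complement component of macrophages, was at 33.0 TPM in replicate 1 of floxed out basophils and 51.7 TPM in replicate 1 of ctrl basophils, against 1.23 to 2.81 TPM in the other 6 libraries. The eosinophil gene Prg2 was at 2354 TPM in replicate 1 of ctrl basophils and at most 152 TPM elsewhere. Results that rest on these libraries are given below also without them.

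The promoters of 5 genes are shown as examples, and no change of level was tested against their sequences. Mvk and Msmo1 were lower in basophils than in pre-Baso, and Soat1 and Srebf2 were higher. Hmgcs1 holds the only match found in these windows to TCACCCCAC, a form of the sterol regulatory element. Each window runs from 250 bases before to 50 bases after the RefSeq transcription start (build GRCm38.p6), 5′ to 3′ on the gene's strand. Capitals mark the letters TCACCCCAC (the sterol regulatory element bound by SREBP), CCAAT (the box bound by NF-Y) and GGGCGG (the box bound by Sp1), each read on either strand, so that ATTGG and CCGCCC are the same boxes on the other strand.
Mvk (chr5:114444019-114444318, plus strand): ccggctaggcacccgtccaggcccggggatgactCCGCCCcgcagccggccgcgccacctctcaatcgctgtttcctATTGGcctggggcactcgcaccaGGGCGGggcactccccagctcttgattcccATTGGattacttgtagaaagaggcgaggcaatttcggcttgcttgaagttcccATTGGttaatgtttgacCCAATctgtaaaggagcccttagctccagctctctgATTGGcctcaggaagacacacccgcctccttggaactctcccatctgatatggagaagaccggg
Msmo1 (chr8:64733529-64733828, minus strand): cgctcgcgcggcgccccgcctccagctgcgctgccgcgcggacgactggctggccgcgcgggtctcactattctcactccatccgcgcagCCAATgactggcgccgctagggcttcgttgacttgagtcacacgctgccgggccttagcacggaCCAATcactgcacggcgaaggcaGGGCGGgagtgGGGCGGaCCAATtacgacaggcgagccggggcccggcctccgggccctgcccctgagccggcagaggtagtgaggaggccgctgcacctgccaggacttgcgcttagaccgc
Soat1 (chr1:156474279-156474578, minus strand): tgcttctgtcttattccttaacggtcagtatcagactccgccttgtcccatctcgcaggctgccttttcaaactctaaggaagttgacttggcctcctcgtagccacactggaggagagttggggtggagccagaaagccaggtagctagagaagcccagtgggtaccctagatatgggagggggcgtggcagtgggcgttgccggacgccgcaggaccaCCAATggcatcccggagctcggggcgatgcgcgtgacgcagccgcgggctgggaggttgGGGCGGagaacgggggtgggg
Srebf2 (chr15:82147019-82147318, plus strand): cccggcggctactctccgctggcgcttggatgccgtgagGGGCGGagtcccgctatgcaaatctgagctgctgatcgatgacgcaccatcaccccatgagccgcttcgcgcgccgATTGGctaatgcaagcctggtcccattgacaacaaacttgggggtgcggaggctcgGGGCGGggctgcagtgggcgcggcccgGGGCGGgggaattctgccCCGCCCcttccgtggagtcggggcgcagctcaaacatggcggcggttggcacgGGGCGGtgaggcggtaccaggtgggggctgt
Hmgcs1 (chr13:119690101-119690400, plus strand): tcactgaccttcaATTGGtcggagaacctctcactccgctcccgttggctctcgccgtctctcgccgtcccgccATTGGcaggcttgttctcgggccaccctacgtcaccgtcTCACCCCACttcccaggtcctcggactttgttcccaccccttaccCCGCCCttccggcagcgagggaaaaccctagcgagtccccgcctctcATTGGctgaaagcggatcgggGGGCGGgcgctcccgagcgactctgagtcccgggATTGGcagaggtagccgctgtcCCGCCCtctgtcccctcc
The Mvk window held 5 CCAAT boxes and the Soat1 window held 1. Srebf2 had 5 GGGCGG boxes and 1 CCAAT box.

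Promoter windows were found for 30 of the 38 genes. The 8 without one were Npc1, Scd2, Fdps, Fdft1, Stard4, Abcg1, Scd1 and Sqle. CCAAT occurred in 23 of the 30 windows (76.7%), against 41.1% of all 27025 genes with a window. GGGCGG occurred in 22 of the 30 (73.3%), against 38.2% of all genes. The E-box CACGTG occurred in 7 of the 30 (23.3%), against 8.09% of all genes. The sterol regulatory element TCACCCCAC was found in the Hmgcs1 window alone, against 0.614% of all genes, and its form with any base at the fifth position, TCACNCCAC, was also found in Hmgcs1 alone, against 1.44%. Neither TTACGTAA, the palindrome bound by Nfil3, nor its variant TTATGTAA was in any of the 30 windows, against 0.126% and 1.11% of all genes. These are matches of letters in a short window and show neither binding nor its absence elsewhere. Other forms of these sites were not searched for, so a window without a match may still hold a site.

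Most of the 38 genes were expressed at a low level in all 4 groups. The mean TPM of a group was under 1 for 16 genes in floxed out basophils, 16 in ctrl basophils, 14 in floxed out pre-Baso and 10 in ctrl pre-Baso, and reached 10 for 2 to 4 genes. The gene-wise median of the group means was 1.64 TPM in floxed out basophils, 1.29 in ctrl basophils, 1.53 in floxed out pre-Baso and 2.09 in ctrl pre-Baso. Nr1h2, which encodes LXR-beta, was the highest in basophils, at 18.3 ± 2.8 TPM in floxed out and 20.9 ± 1.8 TPM in ctrl libraries (SD, n = 2 each). Abcg1, the sterol exporter, came second there, at 16.2 and 17.8 TPM in floxed out and 20.9 and 16.8 TPM in ctrl basophils, and the values of both genes overlapped in each genotype. Ebp, the isomerase that shifts the sterol double bond, was at 13.2 to 18.8 TPM in all 8 libraries and was the highest gene of cholesterol synthesis in every group. In pre-Baso, Nr1h2 and Ebp led with overlapping values, and Fdps followed in ctrl pre-Baso. Elovl5, which elongates polyunsaturated fatty acids, and Acly, which makes cytosolic acetyl-CoA from citrate, were at 6.66 to 10.6 TPM throughout.

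**Figure D1:**
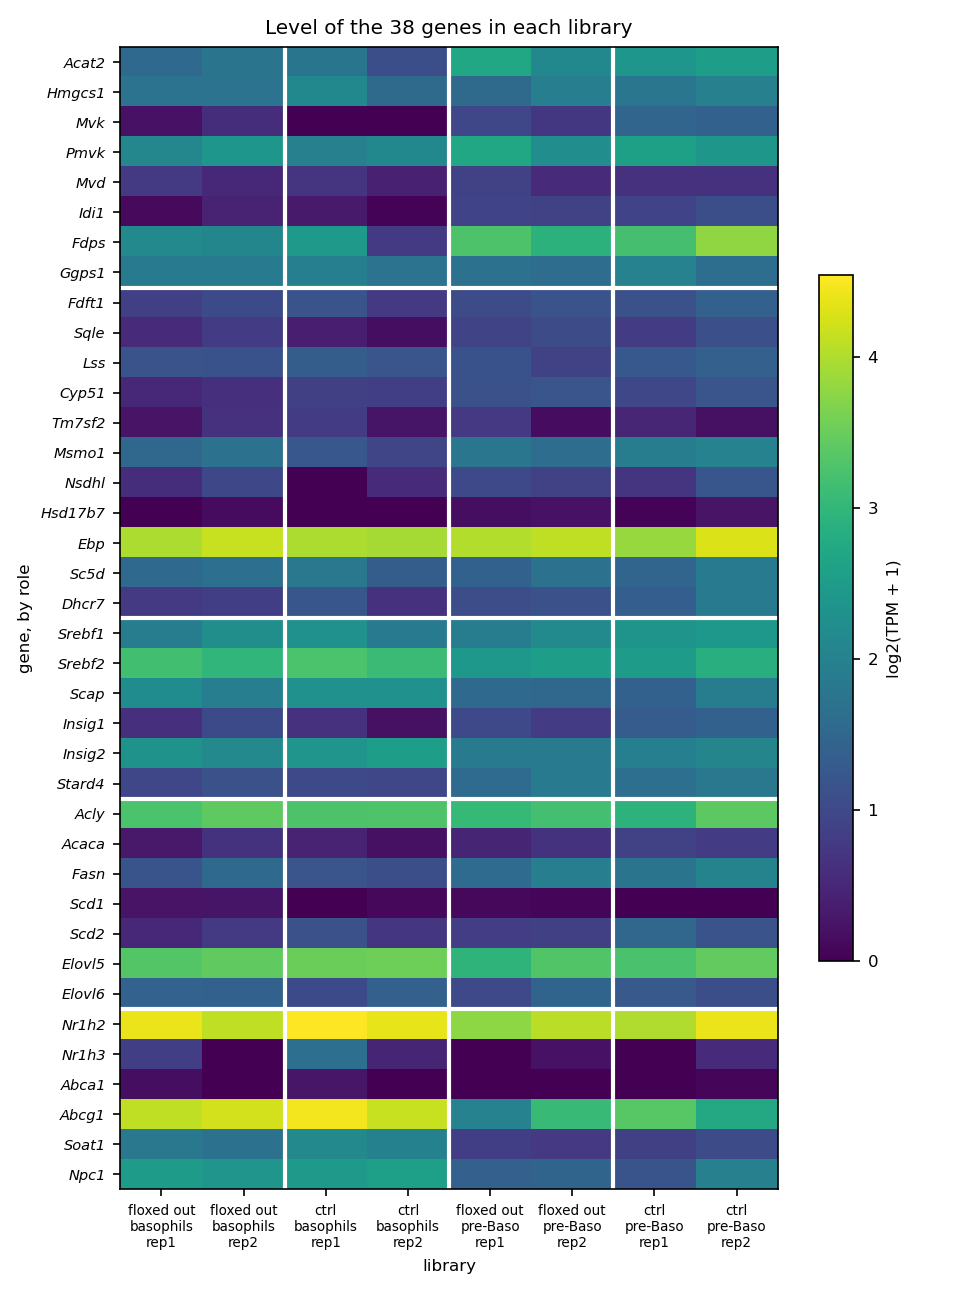
Level of each of the 38 genes (rows, grouped by role) in each of the 8 libraries (columns), as log2(TPM + 1) by colour. Nr1h2, Ebp and Abcg1 in basophils are the brightest rows, and Abcg1, Soat1 and Npc1 are dimmer in the 4 pre-Baso libraries.

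A gene entered the tests if its TPM was at least 1 in at least 2 libraries. Of the 38 genes, 29 passed and 9 did not, namely Mvd, Idi1, Tm7sf2, Nsdhl, Hsd17b7, Acaca, Scd1, Nr1h3 and Abca1. Mvk, Sqle and Cyp51 reached 1 TPM in pre-Baso libraries only, so their entry already favoured a higher level there. Mvk reached it only in ctrl pre-Baso, and Scd2 only in ctrl libraries of both populations. The entry of Mvk and Scd2 thus also favoured a higher level in ctrl. Calls rest on limma on log2(TPM + 1), at p under 0.05 after Benjamini-Hochberg adjustment over all 12511 genes tested. On that scale the change of a gene near 1 TPM is understated.

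Averaged over both genotypes, 7 of the 29 tested genes fell in basophils relative to pre-Baso, against a background of 13.3% of all genes tested. In the same comparison 6 of 29 rose, a share close to the background of 20.4%. The 7 were Fdps, Mvk, Acat2, Stard4, Fasn, Sqle and Msmo1, and the 6 were Abcg1, Soat1, Npc1, Scap, Srebf2 and Insig2. Mvk and Sqle passed the filter only through pre-Baso, where they were high, and of the other 26 genes 5 fell. The number that fell was 3 without replicate 2 of ctrl pre-Baso, 4 without replicate 2 of ctrl basophils and 4 without replicate 1 of floxed out basophils. Over all 38 genes the median log2 change was -0.07, with 22 of 38 negative. Over the 29 tested genes the median was -0.06, beside 0.09 over all genes tested. In bulk RNA, fewer cells with a transcript and less of it per cell cannot be told apart. The 4 basophil and 4 pre-Baso libraries did not overlap for 6 tested genes higher in basophils (background 21.3%) and 6 lower (background 13.1%). The 6 higher were those called, and the 6 lower were Acat2, Mvk, Fdps, Cyp51, Stard4 and Fasn.

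**Figure D2:**
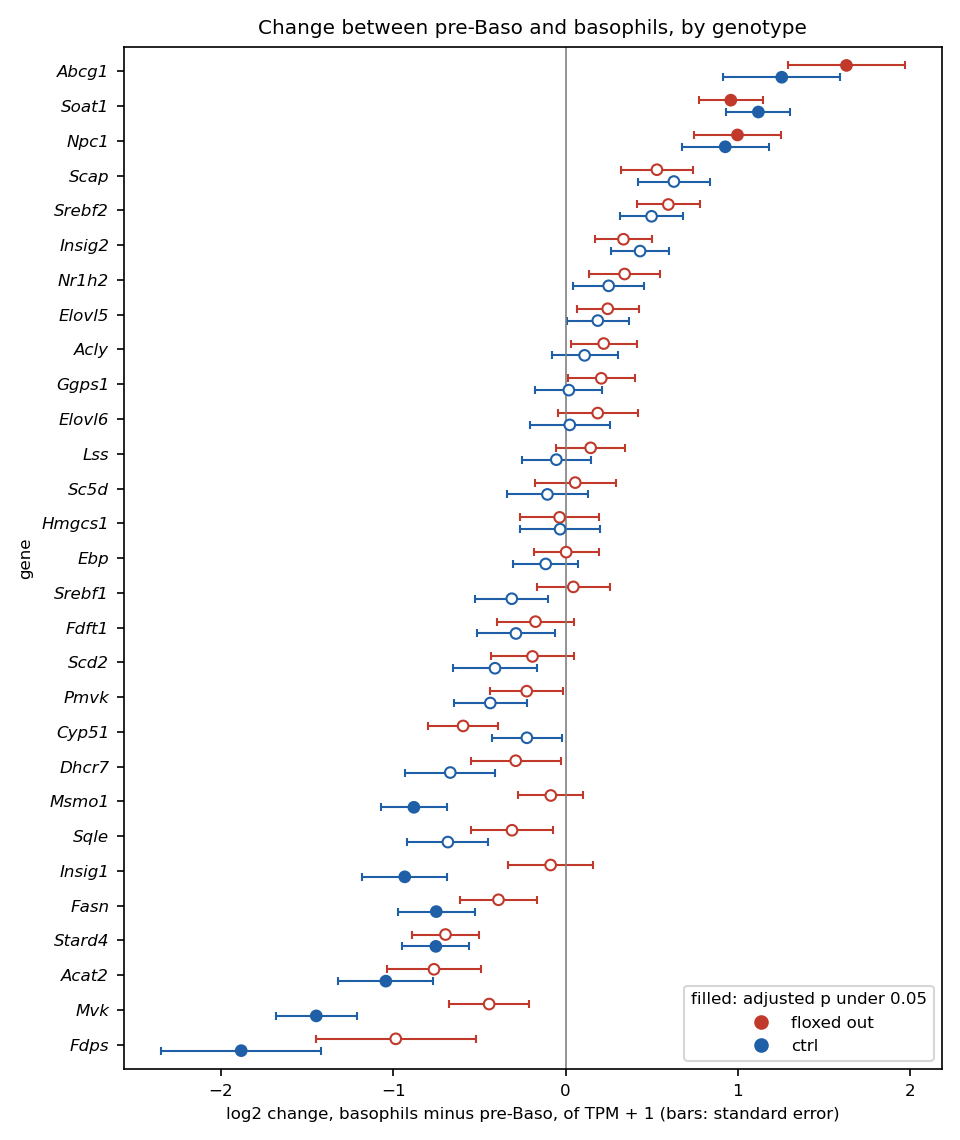
Log2 change of TPM + 1, basophils minus pre-Baso (horizontal axis), for the 29 tested genes (vertical axis) in floxed out (red) and ctrl (blue), with standard errors and filled points where the adjusted p was under 0.05. Abcg1, Soat1 and Npc1 are filled in both genotypes on the right, and the 7 filled points on the left are all from ctrl.

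Of the 8 genes of the mevalonate and early isoprenoid steps, 6 were tested, 3 fell in basophils (13.3% of all genes tested) and none rose (20.4%). Of the 3, Mvk had passed the filter only through pre-Baso. Fdps (chr3:89093588-89101959, minus strand), makes the farnesyl diphosphate shared by sterols, ubiquinone, dolichol and prenylated proteins. It had 3.39 and 3.23 TPM in floxed out basophils and 4.42 and 0.712 TPM in ctrl basophils, against 8.68 and 6.52 TPM in floxed out pre-Baso and 8.15 and 12.8 TPM in ctrl pre-Baso. The basophil values were all below the pre-Baso values, and replicate 2 of ctrl basophils was far below the other basophil libraries. Its log2 change was -1.43 ± 0.33 (SE, limma adjusted p = 0.012), and without replicate 2 of ctrl pre-Baso it was -1.29 with an adjusted p of 0.051. The transcript ENSMUST00000196709 carried most of the gene's TPM except in that library, where ENSMUST00000081848 was at 11.5 TPM. Fdps shares 1124 of its 4208 exon bases with Gm43738 on the same strand. Gm43738 was at 0.637 TPM in replicate 2 of ctrl basophils, 0.522 TPM in replicate 1 of ctrl pre-Baso and 0 elsewhere. The part of this overlap in the Fdps levels was not tested.

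Mvk (chr5:114444269-114460591, plus strand), mevalonate kinase, was at 0.169 and 0.513 TPM in floxed out basophils and was listed at 0 in both ctrl basophil libraries. It was at 0.961 and 0.669 TPM in floxed out pre-Baso and at 1.79 and 1.66 TPM in ctrl pre-Baso. The populations did not overlap, and within each population the genotypes did not overlap either, but no genotype change of Mvk was called. Its log2 change over both genotypes was -0.94 ± 0.17 (limma adjusted p = 0.0035), on 0 to 2.35 kb of assigned bases a library. Acat2 (chr17:12942890-12960747, minus strand), the cytosolic thiolase that starts the pathway, had 1.93 and 2.35 TPM in floxed out basophils and 2.38 and 1.13 TPM in ctrl basophils, against 5.53 and 3.33 TPM in floxed out pre-Baso and 4.25 and 4.82 TPM in ctrl pre-Baso. No basophil library reached the lowest pre-Baso library, and the log2 change was -0.90 ± 0.19 (limma adjusted p = 0.0089).

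The other genes of these steps did not pass. Hmgcs1, the HMG-CoA synthase whose promoter holds the sterol regulatory element printed above, was at 1.96 to 3.32 TPM in basophils and 1.98 to 2.91 TPM in pre-Baso, with a log2 change of -0.03 ± 0.16. Pmvk, phosphomevalonate kinase, was at 2.96 to 4.20 TPM in basophils and 3.66 to 5.55 TPM in pre-Baso (log2 change -0.33 ± 0.15, limma adjusted p = 0.13). Ggps1, which makes geranylgeranyl diphosphate, had a log2 change of 0.11 ± 0.14. Idi1, isopentenyl diphosphate isomerase, was too low to be tested, at 0.0344 to 0.354 TPM in basophils and 0.848 to 1.12 TPM in pre-Baso, and the populations did not overlap. Mvd, mevalonate diphosphate decarboxylase, stayed at 0.336 to 0.870 TPM. Summed over the 8 genes, basophils had 14.6 and 16.0 TPM (floxed out) and 16.9 and 9.84 TPM (ctrl), against 26.7 and 20.4 TPM in floxed out pre-Baso and 26.1 and 30.2 TPM in ctrl pre-Baso.

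Of the 11 genes of the steps after farnesyl diphosphate, 8 were tested, 2 fell in basophils (13.3% of all genes tested) and none rose (20.4%). Of the 2, Sqle had passed the filter only through pre-Baso. Msmo1 (chr8:64718139-64733792, minus strand), the sterol C4 methyl oxidase, had 1.88 and 2.29 TPM in floxed out basophils and 1.34 and 0.938 TPM in ctrl basophils, against 2.45 and 2.08 TPM in floxed out pre-Baso and 2.82 and 3.03 TPM in ctrl pre-Baso. The ctrl populations were separate, while in floxed out libraries the basophil and pre-Baso values overlapped. Its log2 change over both genotypes was -0.48 ± 0.13 (limma adjusted p = 0.025). The adjusted p lay between 0.059 and 0.083 when replicate 1 or 2 of ctrl pre-Baso, replicate 1 of floxed out pre-Baso, replicate 2 of ctrl basophils or replicate 1 of floxed out basophils was left out. The Msmo1 TPM moved between the transcripts ENSMUST00000034015 (2044 bases) and ENSMUST00000132013 (2766 bases) from library to library. With 1 fixed length per gene the Msmo1 change over both genotypes was -0.42 and was not called (limma adjusted p = 0.054). Sqle, squalene epoxidase, was at 0.122 to 0.753 TPM in basophils and 0.730 to 1.16 TPM in pre-Baso (log2 change -0.50 ± 0.17, limma adjusted p = 0.049). Leaving out any single library of the 8 ended this call, at adjusted p of 0.057 to 0.13.

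Cyp51, the lanosterol demethylase, was at 0.434 to 0.826 TPM in basophils and 0.943 to 1.29 TPM in pre-Baso, without overlap, but missed the threshold (log2 change -0.41 ± 0.14, limma adjusted p = 0.059). Dhcr7, which reduces the last double bond, was at 0.560 to 1.33 TPM in basophils and 1.11 to 2.60 TPM in pre-Baso (log2 change -0.48 ± 0.19, limma adjusted p = 0.079). Fdft1 (squalene synthase), Lss (lanosterol synthase), Ebp and Sc5d (lathosterol oxidase) had log2 changes from -0.23 to 0.05, and their populations overlapped. Fdft1 shares 774 exon bases with Ctsb on the opposite strand, which the unstranded reads cannot separate. Of the 3 untested genes, Nsdhl was at 0 to 0.970 TPM in basophils and 0.609 to 1.31 TPM in pre-Baso, Hsd17b7 was at 0.187 TPM or less in every library, and Tm7sf2 was at 0.114 to 0.726 TPM. Ebp alone carried 14.2 to 16.8 TPM of the 20.8 to 27.2 TPM that the 11 genes summed to in basophils. In pre-Baso the 11 genes summed to 24.7 to 34.4 TPM, so the ranges overlapped.

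All 6 genes of the SREBP regulators and sterol carriers were tested, 3 rose in basophils (20.4% of all genes tested) and 1 fell (13.3%). Srebf2 (chr15:82147181-82205379, plus strand), which encodes SREBP-2, had 7.99 and 6.93 TPM in floxed out basophils and 8.52 and 7.57 TPM in ctrl basophils, against 4.34 and 4.84 TPM in floxed out pre-Baso and 4.64 and 6.24 TPM in ctrl pre-Baso. All basophil values were above all pre-Baso values, and the log2 change was 0.55 ± 0.13 (limma adjusted p = 0.013). Scap (chr9:110333288-110384950, plus strand), the escort of SREBP, was at 2.84 to 3.91 TPM in basophils and 1.67 to 2.77 TPM in pre-Baso (log2 change 0.58 ± 0.15, limma adjusted p = 0.018). Without replicate 1 of ctrl pre-Baso, replicate 1 of floxed out pre-Baso or replicate 1 of floxed out basophils its adjusted p was 0.052 to 0.060.

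Of the retention proteins, Insig2 was above Insig1 in all 8 libraries. Insig2 was at 3.42 to 4.77 TPM in basophils and 2.70 to 3.21 TPM in pre-Baso, without overlap (log2 change 0.38 ± 0.12, limma adjusted p = 0.035). Without any single one of the 8 libraries its adjusted p was 0.054 to 0.11. Insig1, itself a target of SREBP, was at 0.542 and 1.02 TPM in floxed out basophils and 0.572 and 0.154 TPM in ctrl basophils, against 0.992 and 0.758 TPM in floxed out pre-Baso and 1.51 and 1.64 TPM in ctrl pre-Baso. Its change over both genotypes missed the threshold (log2 change -0.51 ± 0.18, limma adjusted p = 0.054). The ratio of Insig2 to Insig1 TPM was 7.30 and 3.37 in floxed out basophils and 7.28 and 30.9 in ctrl basophils, against 2.73 and 3.56 in floxed out pre-Baso and 1.92 and 1.95 in ctrl pre-Baso.

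Stard4 (chr18:33199355-33213862, minus strand), a soluble sterol carrier and SREBP target, fell as well. It had 0.943 and 1.17 TPM in floxed out basophils and 1.01 and 0.949 TPM in ctrl basophils, against 2.01 and 2.68 TPM in floxed out pre-Baso and 2.16 and 2.52 TPM in ctrl pre-Baso (log2 change -0.72 ± 0.14, limma adjusted p = 0.0051). Srebf1, which encodes SREBP-1, was at 2.64 to 3.90 TPM in basophils and 2.74 to 4.37 TPM in pre-Baso, with a log2 change of -0.13 ± 0.15. Its first exons differ between the SREBP-1a and SREBP-1c messages, and the exons were not assigned to these messages here. Coverage of the first exon of ENSMUST00000020846 (chr11:60220453-60220604) was 0.336 to 2.51 reads per base in basophils and 1.99 to 3.14 in pre-Baso. A first exon further upstream (chr11:60222523-60222581), that of ENSMUST00000136215, was covered only in replicate 1 of ctrl pre-Baso, at 0.525. Coverage of the downstream first exon (chr11:60210336-60210465), that of ENSMUST00000144942, was 0 to 0.377 in all libraries.

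Of the 7 genes of fatty acid synthesis, 5 were tested, 1 fell in basophils (13.3% of all genes tested) and none rose (20.4%). Fasn (chr11:120805846-120824547, minus strand), the fatty acid synthase, had 1.26 and 1.95 TPM in floxed out basophils and 1.28 and 1.14 TPM in ctrl basophils, against 1.99 and 2.83 TPM in floxed out pre-Baso and 2.37 and 3.10 TPM in ctrl pre-Baso. The populations were separated by a narrow margin, between replicate 2 of floxed out basophils and replicate 1 of floxed out pre-Baso. The log2 change was -0.57 ± 0.16 (limma adjusted p = 0.024). The adjusted p was 0.0815 without replicate 2 of ctrl pre-Baso, 0.079 without replicate 2 of floxed out pre-Baso, 0.058 without replicate 2 of ctrl basophils and 0.074 without replicate 1 of floxed out basophils. Acly (log2 change 0.17 ± 0.14), Elovl5 (0.22 ± 0.13), Elovl6, the elongase of saturated chains (0.11 ± 0.16), and the desaturase Scd2 (-0.30 ± 0.17) did not pass. Acaca, acetyl-CoA carboxylase, was at 0.150 to 0.583 TPM in basophils and 0.386 to 0.854 TPM in pre-Baso, and the desaturase Scd1 at 0.191 TPM or less in every library.

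Of the 6 genes of LXR, export and storage, 4 were tested, 3 rose in basophils (20.4% of all genes tested) and none fell (13.3%). Abcg1 (chr17:31057675-31117988, plus strand), which moves sterols out of the cell, had 16.2 and 17.8 TPM in floxed out basophils and 20.9 and 16.8 TPM in ctrl basophils, against 3.05 and 7.33 TPM in floxed out pre-Baso and 9.25 and 5.69 TPM in ctrl pre-Baso. Each basophil library was above the highest pre-Baso library, and the log2 change was 1.44 ± 0.24 (limma adjusted p = 0.0028). Soat1 (chr1:156424525-156474331, minus strand), which esterifies cholesterol for storage, had 2.53 and 2.24 TPM in floxed out basophils and 3.38 and 2.995 TPM in ctrl basophils, against 0.798 and 0.681 TPM in floxed out pre-Baso and 0.805 and 1.05 TPM in ctrl pre-Baso. Again no values overlapped, and the log2 change was 1.04 ± 0.13 (limma adjusted p = 0.00078). The mean TPM over the 4 libraries of a population was 2.83 times as high in basophils for Abcg1 and 3.34 times as high for Soat1.

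Npc1 (chr18:12189692-12236400, minus strand), which exports cholesterol from lysosomes, had 4.59 and 4.15 TPM in floxed out basophils and 4.48 and 4.90 TPM in ctrl basophils, against 1.62 and 1.76 TPM in floxed out pre-Baso and 1.28 and 2.93 TPM in ctrl pre-Baso (log2 change 0.96 ± 0.18, limma adjusted p = 0.0045). The full-length transcript ENSMUST00000025279 was at 1.35 to 3.69 TPM in basophils and 1.17 to 1.66 TPM in pre-Baso, and these ranges overlap. The short transcript ENSMUST00000234044 from the 3′ end of the gene was at 0.316 to 3.12 TPM in basophils and 0 to 1.56 TPM in pre-Baso. The 3′ end of Npc1 shares 511 exon bases with Rmc1 on the opposite strand, and Rmc1 was at 13.6 to 19.9 TPM in basophils and 4.94 to 9.54 TPM in pre-Baso. Reads of both genes cannot be told apart there, so the level of Npc1 is uncertain. With 1 fixed length per gene Npc1 was at 3.68 to 5.46 TPM in basophils and 1.74 to 2.63 TPM in pre-Baso.

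Nr1h2 was at 16.3 to 22.2 TPM in basophils and 12.6 to 20.2 TPM in pre-Baso, and its log2 change of 0.30 ± 0.15 did not pass (limma adjusted p = 0.15). Nr1h3, which encodes LXR-alpha, was at 0.797 and 0 TPM in floxed out basophils and 2.14 and 0.382 TPM in ctrl basophils, and at 0 to 0.465 TPM in pre-Baso. Its highest values were in the replicate 1 libraries in which C1qa, C1qb and C1qc were highest, and the part of macrophage RNA in them was not tested. Abca1, the other LXR-induced exporter, was at 0.211 TPM or less in every library. Summed over the 6 genes, basophils had 44.5 and 40.5 TPM (floxed out) and 53.4 and 44.7 TPM (ctrl), against 18.1 and 25.6 TPM in floxed out pre-Baso and 26.3 and 30.4 TPM in ctrl pre-Baso.

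**Figure D3:**
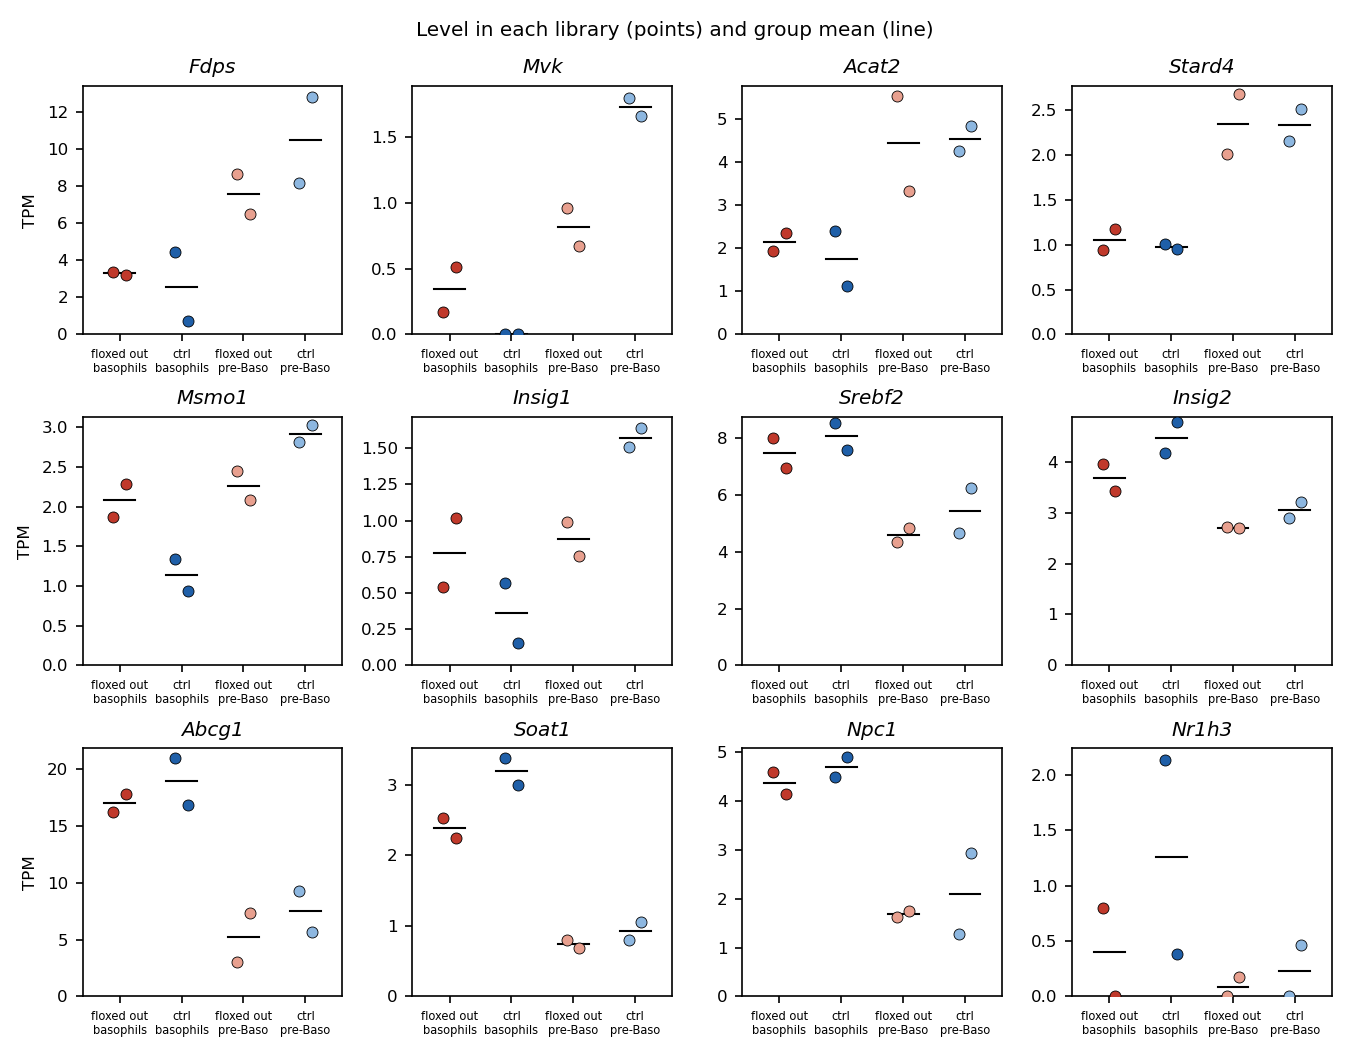
TPM (vertical axes, from 0) of 12 of the genes in each library (points) with the group mean (line), for floxed out basophils, ctrl basophils, floxed out pre-Baso and ctrl pre-Baso from left to right. Fdps, Mvk, Acat2 and Stard4 are higher in pre-Baso, Srebf2, Insig2, Abcg1, Soat1 and Npc1 are higher in basophils, and the highest Nr1h3 value is 1 ctrl basophil library at 2.14 TPM.

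Within ctrl, 3 genes rose in basophils (Abcg1, Soat1 and Npc1, background 12.6%) and 7 fell (Acat2, Mvk, Fdps, Msmo1, Insig1, Stard4 and Fasn, background 10%). Of the 7, Mvk had passed the filter only through ctrl pre-Baso, the higher side of this comparison. Mvk was also the gene still called lower when either ctrl pre-Baso library was left out. The changes in ctrl ran from a log2 change of -1.88 ± 0.47 for Fdps (limma adjusted p = 0.022) to 1.26 ± 0.34 for Abcg1 (adjusted p = 0.031). The Abcg1 call in ctrl ended with protein-coding scaling (adjusted p = 0.058), with median-of-ratios scaling (adjusted p = 0.068) and, just over the threshold, with FPKM. Mvk changed by -1.45 ± 0.23 (adjusted p = 0.0041), Insig1 by -0.93 ± 0.25 (adjusted p = 0.029) and Msmo1 by -0.88 ± 0.19 (adjusted p = 0.013). With 1 fixed length per gene the Msmo1 change in ctrl was -0.61 and was not called (limma adjusted p = 0.061). The number that fell was 1 without replicate 1 of ctrl pre-Baso, 1 without its replicate 2, and 2 without replicate 2 of ctrl basophils. The number that rose was 1 without replicate 1 of ctrl pre-Baso, replicate 1 of ctrl basophils or replicate 2 of ctrl basophils.

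Within floxed out, the same 3 genes rose in basophils (background 6.79%) and none fell (background 4.11%). Abcg1 rose by 1.63 ± 0.34 (limma adjusted p = 0.023), Npc1 by 0.998 ± 0.25 (adjusted p = 0.040) and Soat1 by 0.96 ± 0.19 (adjusted p = 0.018) on the log2 scale. The Npc1 call ended with 1 fixed length per gene (log2 change 0.60, limma adjusted p = 0.079) and, just over the threshold, with log2(TPM + 0.1). None of the 3 was called without replicate 1 of floxed out pre-Baso, or without replicate 1 or 2 of floxed out basophils, and 1 was called without replicate 2 of floxed out pre-Baso. In the first 3 of these settings the number of all genes called higher also fell, to 19, 151 and 259 of the 849 in the full comparison, while the log2 change of Soat1 was 1.01, 0.90 and 1.02. The changes that came nearest to a fall were those of Stard4 (-0.70 ± 0.20, limma adjusted p = 0.056), Cyp51 (-0.59 ± 0.20, adjusted p = 0.10) and Acat2 (-0.76 ± 0.28, adjusted p = 0.11). Msmo1 (-0.09 ± 0.19) and Insig1 (-0.09 ± 0.25) had changes near 0 in floxed out libraries. That a gene passed in ctrl and not in floxed out does not show that the changes differ, and the test of that difference follows.

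For the difference between these changes, equally the difference of the genotype effect between basophils and pre-Baso, limma called no gene of the 38, and none of all genes tested in either direction (0% higher and 0% lower). At an unadjusted p under 0.05, 3 of the 29 had a positive difference, against 3.68% of all genes, and none a negative one, against 1.82%. The 3 were Mvk (log2 difference 1.003 ± 0.33), Msmo1 (0.79 ± 0.27) and Insig1 (0.85 ± 0.35), each with a limma adjusted p of 0.90. Of these, Mvk had passed the filter only through ctrl pre-Baso. For all 3, both floxed out pre-Baso libraries were below both ctrl pre-Baso libraries. With 1 fixed length per gene Msmo1 lost this order, at 2.99 and 1.96 TPM in floxed out and 2.46 and 2.84 TPM in ctrl pre-Baso. In basophils both floxed out libraries of Mvk and Msmo1 were above both ctrl libraries, while those of Insig1 overlapped with them. The 3 genes were chosen by an unadjusted p from the same values, so these orders are not a further result. The share of all genes ordered in this way is not given here.

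Between genotypes, limma called none of the genes. In basophils, 0 of 29 rose (background 0.0320%) and 0 fell (background 0.0240%). In pre-Baso, 0 of 29 rose (background 0.0320%) and 0 fell (background 0.0320%). In the mean over both populations 0 rose (background 0.0480%) and 0 fell (background 0.0400%). At an unadjusted p under 0.05, basophils had 1 gene higher, against 4.91% of all genes, and 0 lower, against 3.6%. The 1 was Msmo1, at a log2 change of 0.53 ± 0.19 (limma adjusted p = 0.47). With 1 fixed length per gene Msmo1 was at 1.75 and 2.15 TPM in floxed out and 1.63 and 1.17 TPM in ctrl basophils. Pre-Baso had 0 higher, against 1.63%, and 1 lower, against 2.75%. The 1 was Mvk, at a log2 change of -0.59 ± 0.23 (limma adjusted p = 1). Mvk had passed the filter only through ctrl pre-Baso, the higher side of this comparison. The mean over both populations had 0 higher, against 3.30%, and 0 lower, against 4.14%.

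In pre-Baso, 31 of the 38 changes were negative, and the share over all genes was not counted. The median log2 change of the 29 tested genes was -0.15, beside -0.04 over all genes tested. The median over all genes was itself -0.14 without replicate 1 of ctrl pre-Baso and 0.06 without its replicate 2. In basophils, 18 of 38 were negative, and the median over the 29 tested genes was -0.005, beside -0.01 over all genes tested. Whether the list differed between the populations was not tested. Mvk and Scd2, named next, had passed the filter only through ctrl libraries. The largest genotype changes in pre-Baso after Mvk were those of Abcg1 (-0.51 ± 0.34), Dhcr7 (-0.50 ± 0.26), Scd2 (-0.49 ± 0.24) and Insig1 (-0.46 ± 0.25), and in basophils after Msmo1 those of Fdps (0.50 ± 0.47), Mvk (0.41 ± 0.23) and Sqle (0.41 ± 0.24). With standard errors of 0.17 to 0.47, log2 differences of about that size were not detectable in these pairs of libraries. Larger ones could also go uncalled, as did the difference between populations given above for Mvk. The absence of calls therefore does not show the absence of a change.

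**Figure D4:**
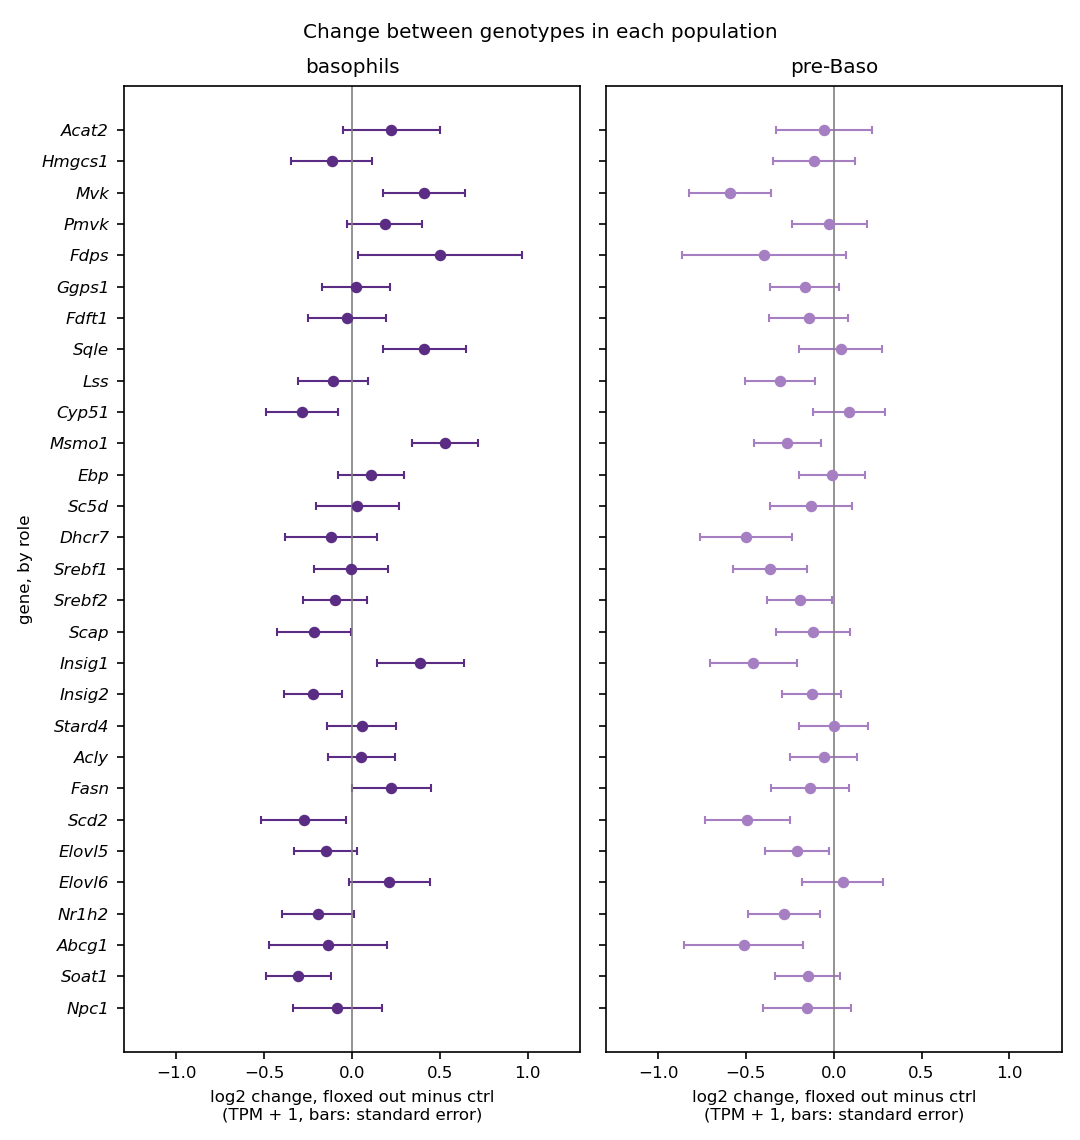
Log2 change of TPM + 1, floxed out minus ctrl (horizontal axis), with standard errors, for the 29 tested genes (vertical axis, by role) in basophils (left) and pre-Baso (right). No gene passed the adjusted threshold, and the points range from -0.59 for Mvk in pre-Baso to 0.53 for Msmo1 in basophils.

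Genes of neighbouring steps were counted in the comparison of basophils with pre-Baso over both genotypes, in which 20.4% of all genes tested rose and 13.3% fell. Of 12 further genes of sterol and isoprenoid synthesis, 11 were tested, 1 rose and 3 fell. Rabggta, a subunit of Rab geranylgeranyl transferase, rose by 1.16 ± 0.22 (limma adjusted p = 0.0049). Pdss1 (log2 change -0.52 ± 0.16, limma adjusted p = 0.036) and Dhdds (-0.54 ± 0.16, adjusted p = 0.033), which start the ubiquinone and dolichol chains from farnesyl diphosphate, were among those that fell. Of 8 genes of SREBP processing and enzyme degradation, all were tested, 2 rose and none fell. The 2 were the ubiquitin ligases Rnf139 (0.48 ± 0.12, limma adjusted p = 0.018) and Rnf145 (0.53 ± 0.13, adjusted p = 0.015).

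Of 28 further genes of fatty acid and glycerolipid metabolism, 20 were tested, 9 rose (20.4% of all genes tested) and 2 fell (13.3%). Fads1, the delta-5 desaturase, was at 17.6 to 23.2 TPM in basophils and 5.82 to 9.53 TPM in pre-Baso (log2 change 1.27 ± 0.17, limma adjusted p = 0.0011), and Fads2, the delta-6 desaturase, at 8.41 to 10.8 TPM in basophils and 4.76 to 6.26 TPM in pre-Baso. Dgat1, which completes triglycerides, was at 80.7 to 135.9 TPM in basophils and 37.3 to 63.2 TPM in pre-Baso (log2 change 1.19 ± 0.21, limma adjusted p = 0.0035). Hacd4, a dehydratase of fatty acid elongation, rose by 1.31 ± 0.15 (limma adjusted p = 0.00051). Hsd17b12, the ketoreductase of the same cycle, fell, at 3.02 to 7.81 TPM in basophils and 13.2 to 16.5 TPM in pre-Baso (log2 change -1.38 ± 0.14, limma adjusted p = 0.00030). Of 19 genes of sterol uptake and transport, 14 were tested, 4 rose (20.4% of all genes tested) and none fell (13.3%). They were Rxrb, the partner of LXR (0.66 ± 0.14, limma adjusted p = 0.0095), Npc2, which hands lysosomal cholesterol to Npc1 (0.44 ± 0.11, adjusted p = 0.017), and the membrane contact proteins Stard3 (0.60 ± 0.16, adjusted p = 0.021) and Gramd1a (0.65 ± 0.20, adjusted p = 0.035). No gene of these 4 lists was called between genotypes in either population.

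The sum of the sterol enzymes was lower in basophils, and so were the markers of dividing cells. All 12 were detected in every library, and their sum was 111 and 190 TPM in floxed out basophils and 63.5 and 63.9 TPM in ctrl basophils, against 479 and 443 TPM in floxed out pre-Baso and 431 and 580 TPM in ctrl pre-Baso. The 19 sterol enzymes of both groups summed to 37.4 and 43.2 TPM in floxed out basophils and 41.4 and 30.6 TPM in ctrl basophils, against 53.3 and 47.6 TPM in floxed out pre-Baso and 50.8 and 64.6 TPM in ctrl pre-Baso. For the 11 enzymes after farnesyl diphosphate alone, the sums overlapped, at 20.8 to 27.2 TPM in basophils and 24.7 to 34.4 TPM in pre-Baso. The part of cell division in the lower enzyme levels was not tested. The sum of 8 monocyte and macrophage markers was 154 and 63.2 TPM in floxed out basophils and 197 and 63.0 TPM in ctrl basophils, against 33.3 and 37.2 TPM in floxed out pre-Baso and 25.1 and 24.5 TPM in ctrl pre-Baso. All 8 markers were detected in every library except Adgre1, which was at 0 in replicate 1 of ctrl pre-Baso. Erythroid markers (7 genes) summed to 127 to 165 TPM in basophils and 27.5 to 113 TPM in pre-Baso, and neutrophil markers (8 genes) to 1304 to 2344 TPM in basophils and 936 to 1346 TPM in pre-Baso. Of the neutrophil markers, Mpo went the other way, at 23.4 to 91.1 TPM in basophils and 172 to 228 TPM in pre-Baso. Elane and Camp overlapped between the populations. The part of other cell types in the results was not tested. In the replicate 2 libraries Abcg1 was at 17.8 TPM in floxed out and 16.8 TPM in ctrl basophils, and Soat1 at 2.24 TPM in floxed out and 2.995 TPM in ctrl basophils. Without both replicate 1 libraries of basophils, Abcg1 and Soat1 rose over both genotypes, and Fdps, Mvk, Acat2 and Stard4 fell. The other 7 calls were lost there, at limma adjusted p of 0.055 (Npc1), 0.083 (Msmo1), 0.099 (Sqle), 0.13 (Srebf2, Scap and Fasn) and 0.14 (Insig2). Their log2 changes there were 0.96 for Npc1, -0.50 for Msmo1, -0.48 for Sqle, 0.47 for Srebf2, 0.51 for Scap, -0.50 for Fasn and 0.38 for Insig2. Calls over all genes were then 1131 higher and 919 lower, against 2547 higher and 1669 lower with all 8 libraries.

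**Figure D5:**
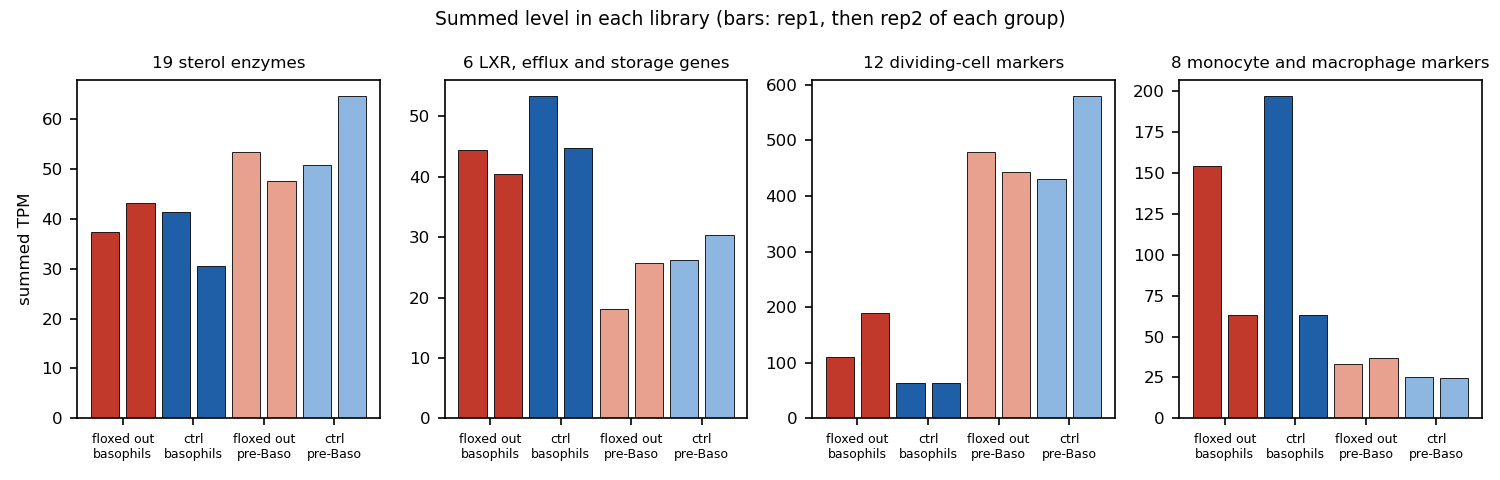
Summed TPM (vertical axes, from 0) of the 19 sterol enzymes, the 6 LXR, efflux and storage genes, 12 dividing-cell markers and 8 monocyte and macrophage markers in each library (bars, replicate 1 then replicate 2 of each group). Sterol enzymes and dividing-cell markers are lower in the 4 basophil libraries, and the macrophage markers peak at 197 TPM in replicate 1 of ctrl basophils.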

How the data were processed

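RNA was measured in 8 sorted bone marrow libraries, 2 per group. Per the labels' protocols, RNA was purified with TRIzol LS and Direct-zol columns and libraries were made with a SMARTER mRNA-Seq kit. The submitters' processing notes name HISAT2 and the build mm10, and transcripts of Ensembl release 101 were quantified with StringTie 2.1.4 per the file headers, without assembly and with no strand option. The deposited files hold coverage, FPKM and TPM per transcript and no counts. TPM is a share of all transcripts, and protein-coding genes took only 18.7 to 22.4% of it.

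TPM was summed per gene. Tests used limma 3.58.1 with a mean-dependent variance trend on log2(TPM + 1), with 1 mean per group over all 8 libraries (4 residual degrees of freedom) and 7 contrasts. The code was tested on simulated data. The genes and lists were chosen with earlier results of these data known, so no set test was run. All 38 genes could be named, and of each list of other genes at most the 4 with the smallest p in a contrast. Rmc1, Ctsb and Gm43738 were named after their values were seen. A gene of these lists is not reported here. Assigned bases are coverage times transcript length. Alternatives were 2 scalings, FPKM, pseudocounts of 0.1 and 5, other filters, other moderation, the groups compared alone, a replicate block and leaving out libraries.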

Additional observations from a re-analysis of the deposited data

How the results depend on the processing

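Over 21 other settings, no change of a called gene reversed its sign. Between genotypes, and for the difference between populations, 0 genes were called in either direction under every setting that could be run. For basophils against pre-Baso over both genotypes, calls ranged from 4 to 5 higher and 3 to 8 lower when 1 library was left out. In ctrl they ranged from 1 to 3 higher and 1 to 7 lower, and in floxed out from 0 to 3 higher and 0 to 1 lower. A TPM of at least 5 in 2 libraries left few of the genes to test. It called 2 higher and 1 lower over both genotypes, 1 and 1 in ctrl, and 1 higher in floxed out. With no filter, 3 were lower over both genotypes, 1 higher and 2 lower in ctrl, and 0 higher in floxed out. Fitting only the groups compared gave 4 lower in ctrl and 1 higher in floxed out. Without both replicate 1 libraries of basophils, chosen after seeing the data, 2 were higher and 4 lower over both genotypes, 1 higher and 3 lower in ctrl, and 0 higher in floxed out. In floxed out, 1 gene was lower with protein-coding scaling, median-of-ratios scaling, FPKM, robust moderation, moderation without the trend or 1 fixed length per gene, the last also added later. The cause was not tested. Over both genotypes, Abcg1 kept its call in the 20 settings run for it, and Soat1, Mvk and Stard4 in the 19 run for them, which leave out the filter at 5 TPM. Mvk had passed the filter only through pre-Baso.

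The replicate numbers were not taken as pairs. Deviations of same-numbered libraries correlated at 0.202 between the basophil groups, whose replicate 1 libraries share high macrophage genes, and at -0.0544 to 0.0572 between the other groups. With the replicate number as a block, 6 genes were higher and 6 lower over both genotypes, the lost call being Sqle (adjusted p = 0.055). The block left the counts in ctrl at 3 higher and 7 lower and in floxed out at 3 higher and 0 lower. With values near 1 TPM and few assigned bases, changes of the lowest genes were not resolved.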
